A study of Mus musculus with 2 samples.

Results

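The genes described here are 10 targets or regulators of signalling by the TGF-beta and BMP families. The ID genes are Id1, Id2, Id3 and Id4, and the inhibitory SMADs are Smad6 and Smad7. Bambi is a pseudoreceptor gene, Skil and Ski are SKI-family corepressor genes, and Tgif1 is a homeodomain corepressor gene. The 10 genes were chosen by name, with differences between these same arrays already known. Their values are therefore given as descriptions and no test supports them. They are 10 of the 35019 genes named on the array and are read by 11 probes in 20 spots. Of the 10, 9 were well above background on both arrays and Bambi on the vehicle array only.

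RNA of mouse cells labelled GT1-7, a line of immortalised hypothalamic neurons, grown in DMEM with FCS was hybridised to 2 one-colour (Cy3) arrays on 1 slide. The GnRH group is 1 array of cells given 50 nM gonadotropin-releasing hormone (GnRH) for 30 min, and the vehicle group is 1 array of cells given DMSO for 30 min. With 1 array per group there is no replicate check, no difference was tested, and nothing is shown beyond these 2 RNA samples. The description of both samples names 100 nM bradykinin and A549 cells instead, so the groups and the dose follow the treatment labels.

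TGF-beta and BMP ligands act through receptor kinases that phosphorylate SMAD proteins, and the SMADs then enter the nucleus and switch target genes. Several of those targets feed back on the pathway: SMAD6 and SMAD7 block the receptors and the SMADs, BAMBI sits at the membrane as a receptor without a kinase, and SKIL and SKI hold SMAD complexes in a repressed state. The ID proteins are classic BMP targets that bind basic helix-loop-helix (bHLH) factors and keep them off DNA, and their transcripts also respond quickly to serum and growth factors in many cell types.

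Among the 9 genes measured on both arrays, Id3, Smad7, Id1 and Skil had the highest signals in GnRH relative to vehicle once the arrays were scaled, at 1.95-fold, 1.56-fold, 1.46-fold and 1.28-fold. Smad6 was 1.22-fold higher in the GnRH sample, by little more than its scanner error, and Id2, Id4 and Tgif1 lay between 1.04-fold and 1.09-fold, within theirs. Ski was the only one of the 9 with a lower scaled signal in the GnRH sample, at 0.776 of vehicle. Bambi was above background in the vehicle sample alone and had a bound of at least 2.61-fold lower in the GnRH sample. That bound rests on the background subtraction. The other background corrections gave a log2 difference of -0.62, but they cannot check the bound. They add an offset or leave the background in, which shrinks the difference of a dim spot. The software marked the spot as found on neither array.

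Values are the scanner's background-subtracted processed signals, and a log2 difference is GnRH minus vehicle after each array was divided by its 75th percentile (541 in GnRH and 578 in vehicle). The error after ± is the scanner software's own estimate for the pair of spots, about 0.20 for a probe printed once. For bright spots it is close to a fixed value, set by a multiplicative term of 0.1 and not by a measured spread. For a probe printed 10 times the errors of its spots were combined as if independent, which makes the error smaller. The error holds no variation between cultures or labellings. In RNA from a whole culture, a change in every cell and a change in the share of responding cells cannot be told apart.

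The cell label could be checked in part, and these markers did not bear out a label of GnRH neurons. Which cells these are was not tested. Gnrh1, the hormone gene that defines GnRH neurons, had 10.3 in GnRH and 7.94 in vehicle and passed the background call on neither array. Six6 and Nhlh2 of the GnRH neuron list were not measured on both arrays either, while Isl1, Otx2, Dlx2 and Dlx5 were. Cga, the common alpha subunit of the pituitary glycoprotein hormones, had 69481 in GnRH and 80508 in vehicle, the receptor gene Gnrhr had 13656 in GnRH and 14861 in vehicle, and the gonadotrope regulator genes Nr5a1 (28614 in GnRH, 33412 in vehicle) and Pitx1 (44001 in GnRH, 48204 in vehicle) were also bright. Foxl2, on the same gonadotrope and pituitary list, had 25329 in GnRH and 26688 in vehicle. Of the gonadotrope hormone genes on that list, Lhb was dim, at 72.1 in GnRH and 71.5 in vehicle. Fshb passed the background call on neither array, at 5.69 in GnRH and 3.80 in vehicle. Of the marker lists, 4 of 7 GnRH neuron genes, 7 of 8 gonadotrope and pituitary genes, 2 of 6 fibroblast genes, 2 of 3 endothelial genes, 3 of 4 microglial genes and 3 of 4 astrocyte genes were measured on both arrays. Summed over each list, the signals in GnRH were 2841 for GnRH neuron genes and 183637 for gonadotrope and pituitary genes. Isl1, at 2479 in GnRH, is on both of those lists. The sums were 1449 for fibroblast, 6375 for endothelial, 6084 for microglial and 917 for astrocyte genes. Few genes made up each of these sums. In GnRH, Kdr gave 6310 of the endothelial sum and Col1a2 1261 of the fibroblast sum. Itgam gave 4561 and Csf1r 1481 of the microglial sum, and Aldh1l1 602 of the astrocyte sum. Cdh5, Cx3cr1, Gfap, Col1a1, Col3a1, Dcn and Lum were not measured on both arrays. The sums therefore do not show that these cell types were present. The part of these cell types in the values below was not tested. All 5 immediate-early genes looked at, which many cells switch on within minutes of a stimulus, were far higher in the GnRH sample: Egr1 by 8.47 on the log2 scale, Fos by 5.98, Junb by 3.31, Ier2 by 3.09 and Dusp5 by 2.74.

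**Figure D1:**
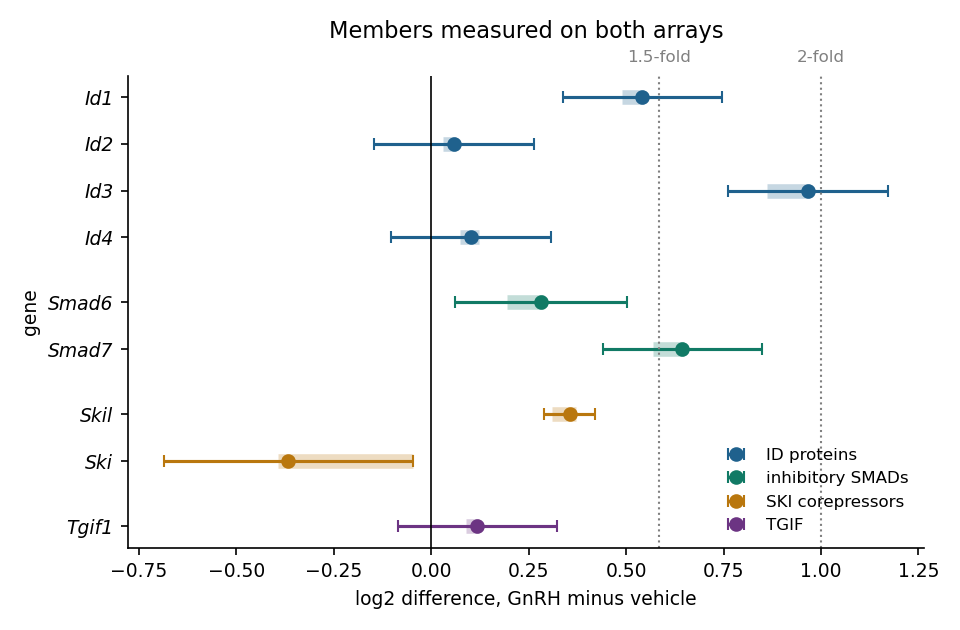
Points give the log2 difference (GnRH minus vehicle, x axis) of each gene measured on both arrays, bars the scanner error and pale bands the lowest and highest value over 10 other ways of processing. Id3 (0.97), Smad7 (0.64), Id1 (0.54) and Skil (0.35) lie to the right of 0 by more than their errors. Smad6 (0.28) does so by little more than its error. Ski (-0.37) is the only point to the left, also by little more than its error. The error of Skil is smaller because it is averaged over repeated spots.

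The ID genes encode helix-loop-helix proteins without a DNA-binding region. Id3 had the largest difference of the 9. Its signal was 792 in GnRH and 433 in vehicle, a log2 difference of 0.97 ± 0.20. Of 21219 genes measured on both arrays it ranked 68 from the highest, and 21 of the 4049 genes within 2-fold of its brightness (0.519%) were as far above 0. The difference lay between 0.86 and 0.97 under every alternative processing tried. Only changes of scaling, background correction or source of values could move it by much, since Id3 is read by 1 spot.

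Id1 had 938 in GnRH and 688 in vehicle, which is 0.54 ± 0.20 on the log2 scale and rank 307. Among 4135 genes of like brightness, 31 (0.750%) were as far above 0. Id2 and Id4 differed little between the arrays. Id2 had 217 in GnRH and 223 in vehicle, and after scaling the difference was 0.06 ± 0.21. Id4 had 325.5 in GnRH and 323.9 in vehicle, a difference of 0.10 ± 0.21. For both, genes of like brightness were as far above 0 in 32.1% (Id2) and 18.6% (Id4) of cases.

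Id3 and Id1 thus had differences above the scanner error, which is nearly the same for each ID gene, and Id2 and Id4 had differences within it. The difference of Id3 exceeded that of Id2 by 0.91 ± 0.29 and that of Id4 by 0.86 ± 0.29, the errors of both genes combined. Id1 exceeded Id2 by 0.48 ± 0.29 and Id4 by 0.44 ± 0.29. Between Id3 and Id1 the gap was 0.43 ± 0.29, so the order of those neighbours rests on little more than 1 scanner error, and Id2 and Id4 cannot be ordered.

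**Figure D2:**
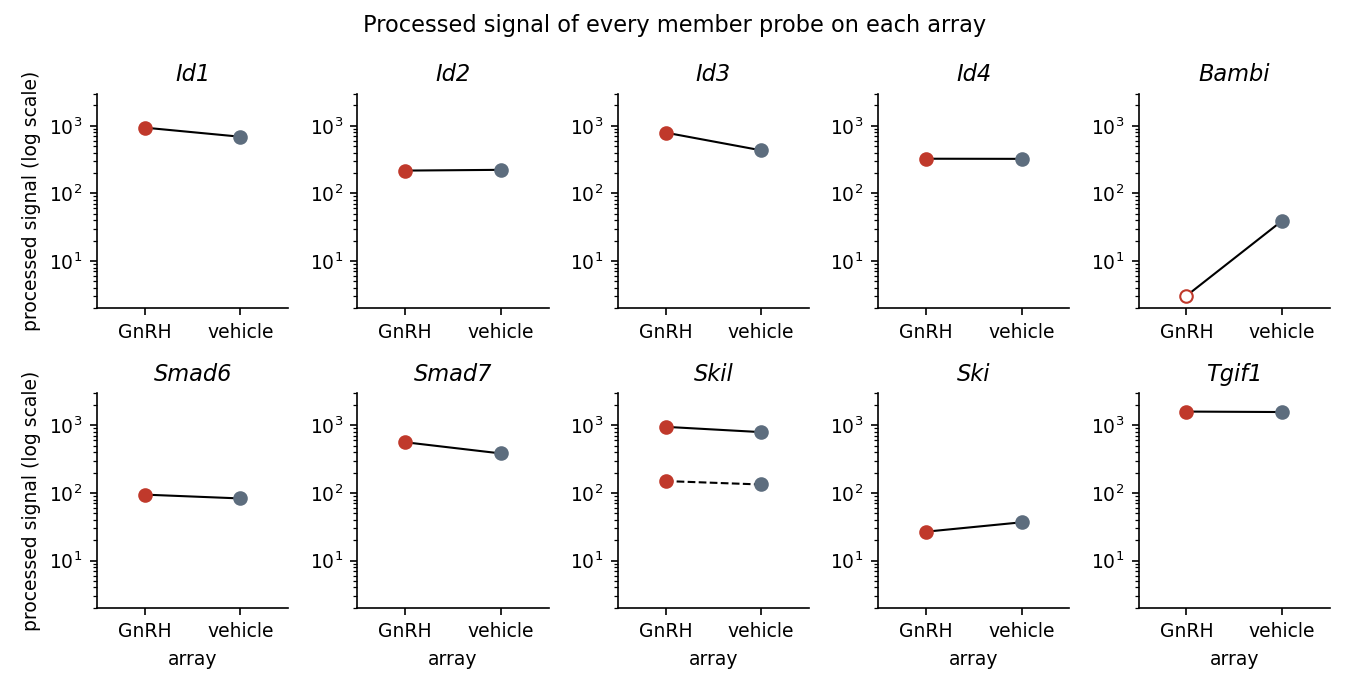
Processed signal (y axis, log scale) of every probe of the 10 genes on the GnRH and the vehicle array, filled where well above background and open where not, with a dashed line for the second Skil probe. The lines of Id1, Id3, Smad7 and Skil are higher at GnRH, those of Id2, Id4 and Tgif1 are nearly level, and Bambi's GnRH point (3.05) is open.

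The Id3 probe and the Skil probe printed once are shown, 5′ to 3′, because Id3 carries the largest difference and Skil is the only gene with a second probe. Both are 60 bases long. The Id3 probe covers 175 bases of the genome (mm9, chr4:135700075-135700249, plus strand), more than its own length, so it spans at least 1 intron and reads spliced RNA. The Skil probe lies at chr3:31016390-31016449 (mm9, plus strand) and has 1 reading frame free of stop codons.
Id3 probe: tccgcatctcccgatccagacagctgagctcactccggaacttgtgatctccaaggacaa
Skil probe: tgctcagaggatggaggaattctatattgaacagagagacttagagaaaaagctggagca

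The probes of the other genes each lie in 60 consecutive bases of mm9, on chromosome 2 for Id1 (152563083 to 152563142, plus strand), 12 for Id2 (25778904 to 25778963, minus), 13 for Id4 (48358668 to 48358727, plus), 9 for Smad6 (63800980 to 63801039, minus), 4 for Ski (154528238 to 154528297, minus) and 17 for Tgif1 (71193629 to 71193688, minus). Each is the only probe of its gene, so no gene but Skil has a second reading on the same array. An annotation of mm9 was not used here, so exon and UTR positions are not given.

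Promoters are shown for the ID genes with an entry, since Id3 differed by more than its error and Id2 and Id4 did not, and for Smad6. The RefSeq table (GRCm38.p6) held 6 of the 10 genes, and Id1, Skil, Smad7 and Bambi are named only. Each window runs from 250 bases before to 50 bases after the start, on the gene's strand: Id3 at chr4:136143572-136143871 (plus), Id2 at chr12:25096043-25096342 (minus), Id4 at chr13:48260866-48261165 (plus) and Smad6 at chr9:64022010-64022309 (minus). Capitals mark matches, on either strand, to the motifs searched: the SMAD palindrome GTCTAGAC, the BMP-type GC element GGCGCC, the cyclic AMP response element TGACGTCA and its core TGACG, which reads CGTCA on the opposite strand, the EGR cores GCGGGGGC and GCGTGGGC, the AP-1 site TGACTCA, the E-box CACGTG and another E-box form, CAGCTG.
Id3 promoter: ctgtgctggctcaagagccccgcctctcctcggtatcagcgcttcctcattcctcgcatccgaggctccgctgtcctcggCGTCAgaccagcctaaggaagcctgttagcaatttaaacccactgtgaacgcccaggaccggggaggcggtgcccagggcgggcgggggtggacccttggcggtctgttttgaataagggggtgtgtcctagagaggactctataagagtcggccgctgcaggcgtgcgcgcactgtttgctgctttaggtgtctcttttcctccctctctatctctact
Id2 promoter: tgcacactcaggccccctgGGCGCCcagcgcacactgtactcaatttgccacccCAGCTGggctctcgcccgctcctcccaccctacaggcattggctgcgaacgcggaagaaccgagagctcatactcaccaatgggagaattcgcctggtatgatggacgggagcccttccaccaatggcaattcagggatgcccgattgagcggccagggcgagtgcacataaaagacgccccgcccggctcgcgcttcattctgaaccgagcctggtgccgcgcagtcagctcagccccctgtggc
Id4 promoter: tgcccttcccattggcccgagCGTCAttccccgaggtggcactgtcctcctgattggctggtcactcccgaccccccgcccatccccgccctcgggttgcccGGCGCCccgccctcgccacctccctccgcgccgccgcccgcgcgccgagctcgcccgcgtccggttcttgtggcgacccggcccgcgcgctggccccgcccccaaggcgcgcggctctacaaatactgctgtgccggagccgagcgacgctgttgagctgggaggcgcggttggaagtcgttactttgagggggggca
Smad6 promoter: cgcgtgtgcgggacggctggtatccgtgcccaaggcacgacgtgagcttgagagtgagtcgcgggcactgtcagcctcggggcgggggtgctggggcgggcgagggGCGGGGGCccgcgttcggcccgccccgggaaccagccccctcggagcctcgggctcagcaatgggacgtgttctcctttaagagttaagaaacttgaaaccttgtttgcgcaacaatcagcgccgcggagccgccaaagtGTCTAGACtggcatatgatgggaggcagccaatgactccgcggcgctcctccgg

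In the Id3 window the single match was the core CGTCA at -170 from the start, a string found in 20.8% of the 32851 promoters of the table. The Id2 window held GGCGCC at -231 (11.9% of promoters) and CAGCTG at -196 (16.3%). The Id4 window held GGCGCC at -148 and CGTCA at -229. The Smad6 window held GCGGGGGC at -144, where 6.26% of promoters have an EGR core, and the palindrome GTCTAGAC across the start, found in 0.213% of promoters. The short SMAD element GTCT, which the palindrome contains, is in 88.0% of promoters and was not marked. TGACGTCA (1.79% of promoters), TGACTCA (5.2%) and CACGTG (7.15%) were in none of these 4 windows. The share of G and C was 60.0% for Id3, 63.3% for Id2, 73.3% for Id4 and 66.3% for Smad6, against a median of 52.7% over all promoters. The windows of Ski and Tgif1 were searched too and are not shown. That of Ski held GGCGCC at -220, some of those of Tgif1 held CAGCTG, and none of them held the palindrome. The palindrome of Smad6 is thus a match from a search of several motifs in several windows. A match is a string of letters, not a bound site, and windows of this length hold no distal elements.

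The inhibitory SMADs are the pathway's intracellular brakes, SMAD7 on both branches and SMAD6 mainly on the BMP branch. Smad7 had 562 in GnRH and 384 in vehicle, a log2 difference of 0.64 ± 0.20 and rank 206. Among 3980 genes of like brightness, 27 (0.678%) were as far above 0. With other background corrections the difference was 0.58 (normexp) or 0.57 (none), just under 1.5-fold, which is 0.585 on this scale. Its probe lies on chromosome 18 of mm9 at 75555371 to 75555430, plus strand.

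Smad6 was dim, with 94.5 in GnRH and 83.0 in vehicle. Its difference was 0.28 ± 0.22, and 9.88% of 3986 genes of like brightness were as far above 0. Smad7 exceeded Smad6 by 0.36 ± 0.30, so the gap between the inhibitory SMADs is close to the scanner error of the pair.

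BAMBI resembles a type I receptor without the kinase region and dampens signalling at the membrane. Bambi had 3.05 in GnRH, not well above background, and 39.2 in vehicle, above it. The raw spot brightness was 68.6 in GnRH over a local background of 67, and 112.7 in vehicle over a local background of 71. The dimmest probe that passed the background call on the GnRH array read 14.1, and set against it the gene was at least 2.61-fold lower in GnRH. Of 324 genes above background in vehicle alone, 48 had a bound as large. The size of the difference turns on the background, and it was -0.62 with normexp and with no correction. Both shrink the difference of a dim spot, by an added offset or by the background left in, so they cannot check the bound. Bambi also has 1 probe, at 3516008 to 3516067 on the plus strand of chromosome 18 (mm9).

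SKIL and SKI are related corepressors that bind SMAD complexes, and Skil is itself a TGF-beta target while its protein is removed on stimulation. Skil is the only one of the 10 genes with repeated spots, since 1 of its probes, at 31021203 to 31021262 on chromosome 3 (mm9, plus strand), was printed 10 times. The GnRH spots were at 889.7 for the lowest, 957.5 for the median and 1004.9 for the highest of 10. The vehicle spots were at 748.8, 797.8 and 825.3 for the lowest, the median and the highest of the 9 kept, and the spot left out as an outlier read 847.6. No GnRH spot overlapped a vehicle spot.

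The mean signals of that probe were 951 in GnRH and 794 in vehicle, and the difference was 0.35 ± 0.07, or 1.28-fold. That error is smaller than those of the other genes because it is averaged over the repeated spots. The 9 pairs of spots at the same positions in both arrays' layouts ran from 0.28 to 0.42 with an SD of 0.04, which measures printing and scanning within these 2 arrays and no spread between cultures. The once-printed Skil probe had 150 in GnRH and 133 in vehicle, 0.26 ± 0.21, in the same direction and within 1 scanner error of the other probe.

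Repeated spots allow Skil to be set beside the 261 probes printed 10 times and measured on both arrays. Skil ranked 4 from the highest, after Fos (5.98), Tcim (0.68) and Dll1 (0.48) and before Cav2 (0.28) and Csf1 (0.26). These 5 neighbours were named by their place in the order, after their values were seen. In 12 of the 261 probes, Skil among them, all GnRH spots were above all vehicle spots after scaling, and in 6 all were below.

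**Figure D3:**
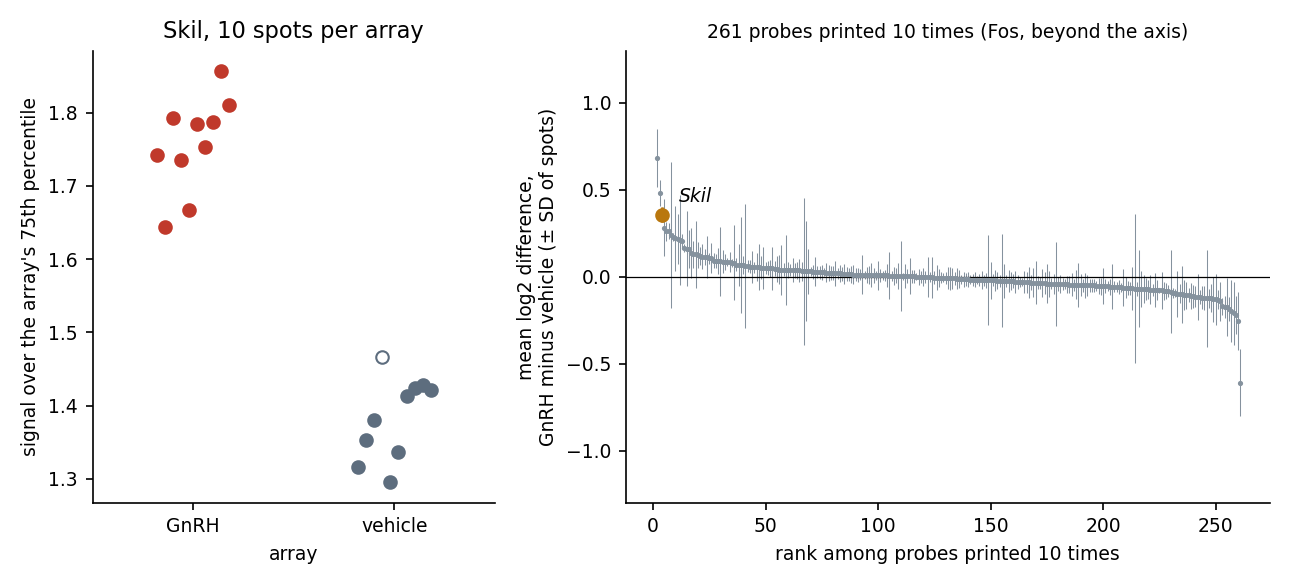
Left, signal over each array's 75th percentile for the 10 spots of the Skil probe in GnRH and in vehicle, the open point being the vehicle spot left out as an outlier. Right, mean log2 difference (± SD of spots) of the 261 probes printed 10 times by rank, with Skil at rank 4; the left panel's axis does not start at 0, and no GnRH spot reaches down to a vehicle spot.

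Ski had the only negative difference among the 9 genes, from a spot not far above background. It had 26.7 in GnRH and 36.8 in vehicle, a log2 difference of -0.37 ± 0.32, and 12.3% of 3639 genes of like brightness were as far below 0. With no background correction the difference was -0.047, so its size rests on a signal little above background. The gap between Skil and Ski was 0.72 ± 0.33.

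TGIF1 is a homeodomain protein that competes with coactivators for SMAD2 and SMAD3. Tgif1 had 1599 in GnRH and 1573 in vehicle, and its difference was 0.12 ± 0.20. In 9.18% of 4196 genes of like brightness the difference was as high or higher. The value ran from 0.09 to 0.12 over the alternatives.

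Across the 9 genes measured on both arrays, 8 differences were above 0 and the median was 0.28, while 10072 of 21219 genes were above 0 and their median was -0.01. At 2-fold, 0 of the 9 were higher, where 0.311% of genes were (66), and 0 were lower, where 0.132% of genes were (28). At 1.5-fold, 2 were higher, Id3 and Smad7, where 1.19% of genes were (253), and 0 were lower, where 0.881% were (187). Nothing is read from these shares, since the genes were selected with their differences known. Just inside 1.5-fold stood Smad7 at 0.64, and just outside stood Id1 at 0.54. No spot of the 10 genes lay in the 4 areas where neighbouring spots differed together, which held 594 of 59305 non-control spots.

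**Figure D4:**
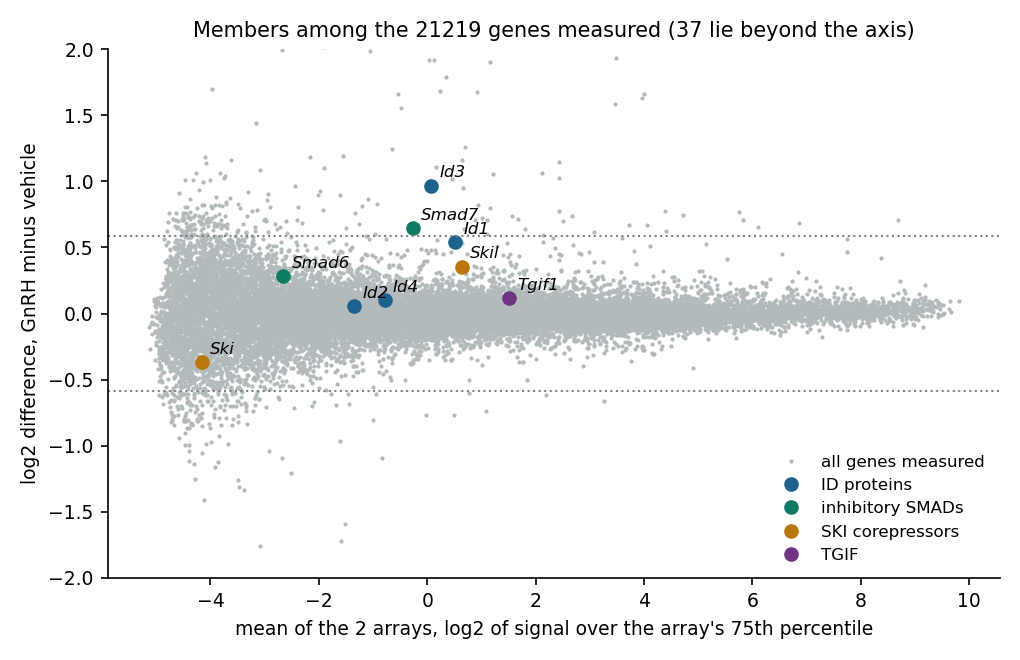
Each grey point is 1 of 21219 genes, with its mean scaled signal (x axis, log2) and its difference (y axis, log2, GnRH minus vehicle), dotted lines at 1.5-fold and 37 genes beyond the axis. Id3, Smad7 and Id1 lie above the bulk of genes of their brightness, and Id2, Id4, Tgif1, Smad6 and Ski lie inside it.

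The authors' deposited table lists its own values for these genes, on a linear scale. Id3 stood at 820 in GnRH and 419 in vehicle in the authors' deposited table, Smad7 at 582 in GnRH and 371 in vehicle, and Id1 at 966 in GnRH and 666 in vehicle. In the authors' deposited table Skil stood at 978 in GnRH and 773 in vehicle for the probe printed 10 times, and Ski at 27.4 in GnRH and 36.0 in vehicle. Bambi was listed in the authors' deposited table at 3.31 in GnRH and 38.2 in vehicle. How that table was normalised is not given in the sources used here. Its values gave 63 genes 2-fold higher and 31 2-fold lower. Those counts were the same as with quantile normalization of the scanner signals, which gives both arrays the same distribution.

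The upstream parts of the pathway lay close to 0 apart from a few ligands. Of 31 ligand genes 16 were measured on both arrays, with a median of 0.02. Gdf15, which encodes a stress-responsive member of the family, was higher in GnRH by 1.58 on the log2 scale, followed by Nodal (0.46) and the activin subunit gene Inhba (0.44). Of 17 receptors and co-receptors 15 were measured, with a median of -0.01 and values from -0.24 (Tdgf1) to 0.18 (Acvr2a), and Rgma stood at 0.16. All 6 receptor-regulated and common SMAD genes were measured and lay between -0.12 (Smad5) and 0.11 (Smad9), with Smad2 at 0.10. The 12 measured of 19 secreted antagonists and latent binding proteins had a median of -0.05. Their largest differences were those of Ltbp2 (-0.28 ± 0.29), Ltbp3 (-0.16) and Ltbp4 (-0.15). By the brightest probe of each gene measured on both arrays, no gene in the receptor, SMAD or antagonist lists differed by 1.5-fold, and in the ligand list only Gdf15 did. The probes of Rgmb, a co-receptor gene, disagreed, at -0.08 for the brighter and -0.67 for the other, which is past 1.5-fold.

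Among the partners of the 10 genes, differences were also small. The 12 intracellular regulators of SMAD activity had a median of 0.04, and the largest values were those of Tgif2, the relative of Tgif1, at 0.32, the ubiquitin ligase gene Trim33 at 0.24 and Wwp1 at 0.12. The bHLH genes whose products ID proteins can bind were measured in 12 of 22 cases, with a median of 0.05. Of these, Lyl1 passed 1.5-fold at 0.64 ± 0.34, from a dim probe with 34.1 in GnRH and 23.3 in vehicle. Neurod1 stood at 0.33 and Neurog1 at -0.19 ± 0.39, the last from an area where neighbouring spots differed together. The main ID-binding E protein genes Tcf3, Tcf4 and Tcf12 stood at -0.06, 0.04 and -0.03. The 12 measured of 14 relatives and corepressor partners of SKI and SKIL ran from -0.12 (Dach1) to 0.13 (Dach2 and Sin3a).

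Lists of genes known to be induced by TGF-beta or by BMP in other cells were read as well, and the difference between the lists was not tested. Of 17 TGF-beta-inducible genes 11 were measured, 10 of them above 0, with a median of 0.30. At 2-fold 2 were higher, Junb (3.31) and Atf3 (1.67), which encode transcription factors that answer many stimuli. Junb is also one of the immediate-early genes above, so that list and this one are not separate. The circadian repressor gene Bhlhe40 followed at 0.45. Of 12 BMP-inducible genes 10 were measured, 8 of them above 0, with a median of 0.07. Dlx5 was the only one past 1.5-fold, at 0.62 ± 0.37, from a dim probe with 31.3 in GnRH and 21.7 in vehicle. Msx2 stood at 0.23 ± 0.21. Runx2 stood at 0.14 ± 0.28, also from a dim probe, with 36.1 in GnRH and 35.0 in vehicle. By its brightest probe, no gene measured in any of these lists was 1.5-fold lower in GnRH.

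**Figure D5:**
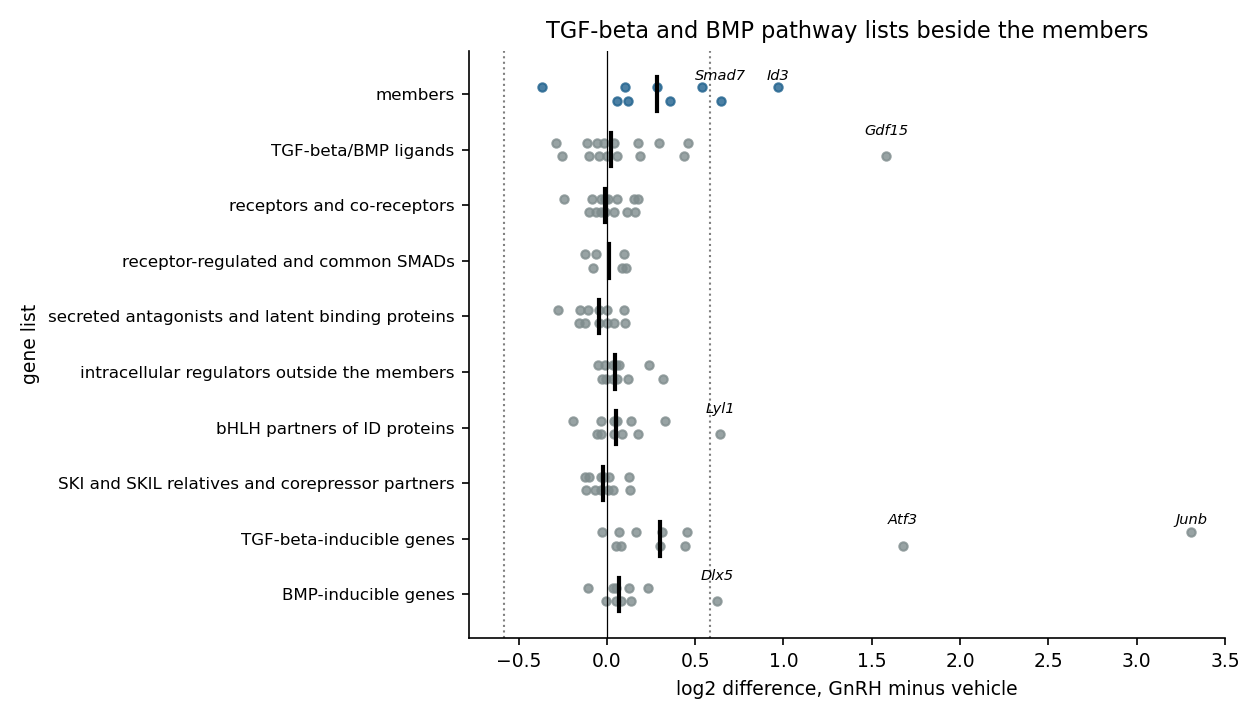
Log2 difference (x axis, GnRH minus vehicle) of every measured gene of the 10 genes' own set and of 9 pathway lists (the immediate-early list is not drawn), with a bar at the list's median, dotted lines at 1.5-fold and the genes higher by 1.5-fold named. The 9 measured of the 10 genes (top row) have a median of 0.28. The TGF-beta-inducible genes, which include the immediate-early gene Junb, have 0.30, and the other 8 lists drawn lie between -0.05 and 0.07.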

How the data were processed

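The deposited scanner files hold the linear intensity of each spot. Background subtraction and detrending were done within each array by Feature Extraction, 10.7.1.1 per the file headers and 9.5.1.1 per the submitters' processing notes. The authors' deposited value table also holds intensity, with 1 value per probe; its columns had medians of 28.4 each, and the GnRH-minus-vehicle differences of 29665 probes correlated with the scanner-based ones (r = 0.998).

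Each array held 62976 spots (59305 non-control, 55681 probes), of which 56.9% in GnRH and 55.2% in vehicle were well above background and 0 were saturated. Control spots and outlier spots (94 in GnRH, 121 in vehicle) were left out, spots of a probe were averaged on the log2 scale, and each array's 75th percentile was subtracted. A gene's value came from its brightest probe well above background (at least 50% of spots) on both arrays. A gene above background on 1 array received a bound. The number of arrays limits the precision. Names of 27235 probes came from a RefSeq table (GRCm38.p6).

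The 10 genes and all lists were chosen with earlier results of these data known. All 10 genes are named. From each list the 3 largest differences and every gene past 1.5-fold (up to 6) are named, as are all immediate-early genes. Gnrh1, Gnrhr, Cga, Nr5a1 and Pitx1 are named as label checks. Tcf3, Tcf4, Tcf12, Lhb, Fshb, Rgmb and Isl1 were added after their values were seen, as were the other cell type markers named. Alternatives changed the scaling, background correction, source of values, probe rule, outlier spots, background call, filter, areas (neighbours within 2 rows and columns, median of at least 0.3) and fold threshold. From the TGF-beta-inducible list 1 gene is not reported here and was left out of that list's values. Protein sequences were planned for comparison and not used here. Python 3.11.15, pandas 2.3.3 and R 4.3.3 with limma 3.58.1 (normexp, offset 50) were used, and the steps were tested on simulated data.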

Additional observations from a re-analysis of the deposited data

How the results depend on the processing

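Of the alternatives, none reversed the log2 difference of a gene among the 9 measured on both arrays, and none brought a gene to 2-fold. For a gene read by 1 spot, those on the probe rule, outlier spots, background call, filter and areas could hardly change the difference. Ski moved most, to -0.047 with no background correction, against -0.37. Genes past 1.5-fold numbered 1 with normexp and 1 with no background correction, against 2, because Smad7 then stood at 0.58 and 0.57. Counts over all genes depended more on the processing. With normexp 12 genes were 2-fold lower, 86 were 1.5-fold higher and 23 were 1.5-fold lower. With no background correction these counts were 12, 88 and 22, and with disturbed areas left out 14 genes were 2-fold lower. At 3-fold 40 genes were higher and 13 lower. With the looser background call 552 genes were 2-fold higher, 311 2-fold lower, 1412 1.5-fold higher and 955 1.5-fold lower, and with no filter on dim probes these were 1259, 760, 2647 and 1666. The median of the immediate-early genes was 2.65 under normexp and 2.63 without any background correction, against 3.31. Bambi, a bound in the main values, had a log2 difference of -0.62 with normexp and with no background correction. Those 2 settings add an offset or leave the background in, so smaller differences of dim spots are built into them. Values of the other genes among the 9 and of the other lists moved by less than the scanner error or spread they were held to. No paired analysis was possible because each group holds 1 array. The depth of reading limits Ski, Smad6 and Bambi most, since their signals lie closest to background.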
